A study of Mus musculus with 8 samples.

Results

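The genes described here are 38 transcripts that mark monocytes, macrophages and, for some of them, all leukocytes. They were picked by symbol, with earlier results of these data known, and all 38 were found among the 16888 genes of the deposited table. The table holds RNA sequencing of whole pancreas from 8 mouse samples. All 8 came from mice given cerulein, a peptide that overstimulates the acinar cells and brings on acute pancreatitis, by repeated injection. In 4 samples the mice lacked Anxa1 in the myeloid lineage (CKO1 to CKO4). In the other 4 the mice carried floxed Anxa1 alleles and were titled wild type (WT1 to WT4). There was no group without cerulein. The labels do not give the promoter that drove the deletion, the strain, the age, the time after injection or whether each sample was a separate animal, so p-values measure the spread between samples.

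Monocytes are made in the bone marrow, circulate in blood and enter injured tissue, where they can become macrophages beside those already resident. Both cell types depend on the transcription factor PU.1, encoded by Spi1, and resident macrophages need the growth factor receptor encoded by Csf1r. In acute pancreatitis such cells clear dead acinar cells and release inflammatory mediators. Annexin A1 is a phospholipid-binding protein that restrains the entry and activation of leukocytes.

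Levels are in RPKM, reads per kilobase of gene scaled to the size of the library, so levels of different genes can be compared. The library totals behind them were 30469002 to 34359802 reads. Anxa1, the deleted gene (chromosome 19, 20373428 to 20390944, minus strand of mm10), was at 4.84, 4.76, 5.21 and 7.13 RPKM in CKO1 to CKO4 and at 8.44, 14.7, 7.05 and 9.74 RPKM in WT1 to WT4 (log2 change -0.73, SE 0.19, limma adjusted p = 0.0417, and 0.0826 without WT2). It passed on 2 of 8 omissions of a single library. The 25 acinar enzyme and granule genes in the table summed to 464664 RPKM or more in every library, so the tissue matched its label. The 38 marker genes together took 0.0437% to 0.153% of the reads of a library. A pair of libraries stood apart in them. WT2 was the highest of all 8 libraries for 35 of the 38 genes, and CKO1 was the lowest for 28. WT2 also held fat cell transcripts, with a summed level of 183 RPKM over 10 genes against 24.2 to 44.8 RPKM elsewhere, and B and plasma cell transcripts, at 14.3 RPKM against 0.206 to 4.76 RPKM. CKO1 had the highest acinar sum, 539921 RPKM. Their part in the results was not tested, so counts are given with and without these libraries.

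The marker genes lay lower in the pancreas of the CKO mice, but few of them by more than the spread between samples. Of the 38, 34 reached 1 RPKM in at least 4 libraries and were tested, with limma across all 8513 such genes. The fitted log2 change was below 0 for 33 of the 34, against 70.4% of all genes tested. Their median log2 change was -0.55, and that of all genes tested was -0.12. At an adjusted p under 0.05 (Benjamini-Hochberg over all genes tested), 4 fell, Lyz1, Cd53, Cyba and Tyrobp, and 0 rose. Over all genes 5.74% fell by the same rule. At an unadjusted p under 0.05, 20 of the 34 were lower and 0 higher, against 22.7% of all genes lower, and limma-voom on recovered read numbers called 2 lower, Cd53 and Lyz1, where it called 3.80% of all genes lower. In whole tissue, fewer cells of a type and less RNA per cell cannot be told apart.

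**Figure D1:**
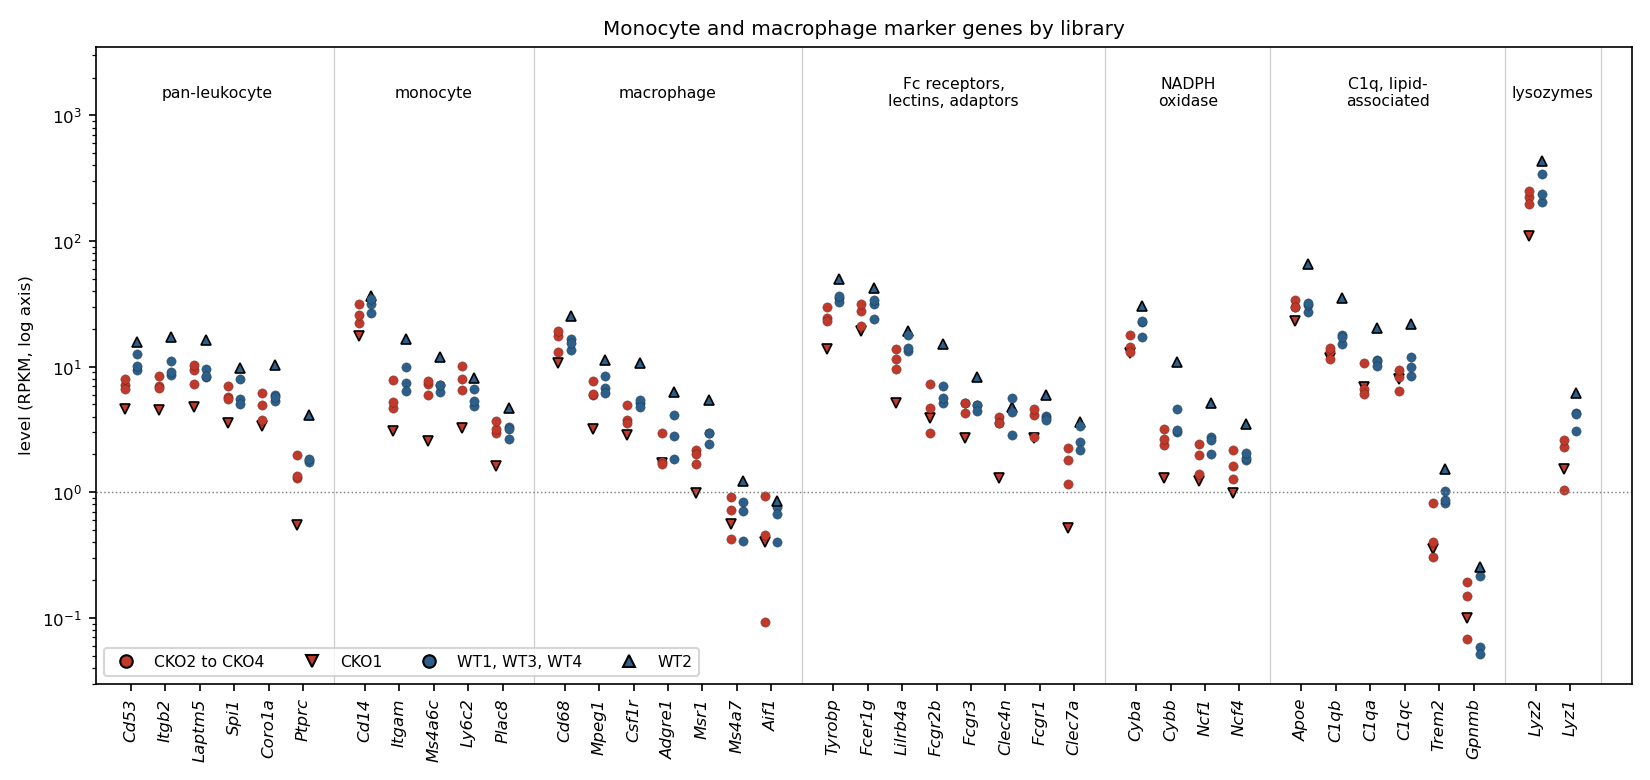
Level of each of the 38 marker genes in each library, in RPKM on a log axis, in blocks by role. Red symbols are CKO and blue symbols WT, the triangles are CKO1 (pointing down) and WT2 (pointing up), and the dotted line is 1 RPKM. WT2 is the highest library for 35 genes and CKO1 the lowest for 28, and Lyz2 is the most abundant gene at 109 to 434 RPKM.

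The difference was smaller without WT2 or CKO1. Without WT2 the median log2 change of the marker genes was -0.35 (all genes -0.11). Lyz1 alone passed, 1 of 34, where 2.12% of all genes fell. The direction remained, with 33 of 34 below 0 against 68.2% of all genes. Without CKO1 the median was -0.41, and 3 passed (Cd53, Tyrobp and Lyz1), where 5.19% of all genes fell. With both libraries left out the median was -0.23 (all genes -0.07), 27 of 34 lay below 0 against 61.0% of all genes, and 0 passed with limma, where 2.54% of all genes fell. At an unadjusted p under 0.05, 10 were then lower, 29.4% against 14.7% of all genes, and 1, Ly6c2, was higher. Without CKO4 or without WT4 the count by limma was 0 as well, where 2.41% and 2.31% of all genes fell. At an unadjusted p under 0.05, 15 (44.1%) and 19 (55.9%) of the 34 were then lower, against 17.5% and 22.7% of all genes. The count was 1 without CKO2 (Lyz1, with 2.15% of all genes) and 1 without WT1 (Cd53, with 1.55%). It was 3 without WT3 (2.51%) and 6 without CKO3 (7.17%).

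In 6 of the 34 tested genes every CKO library lay below every WT library. These were Cd53, Itgb2, Msr1, Tyrobp, C1qb and Lyz1. That is 17.6% of the tested marker genes, near the 16.2% of all genes tested with the same pattern. Without WT2 the count was 6 of the same 34 genes, against 18.4% of all genes.

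**Figure D2:**
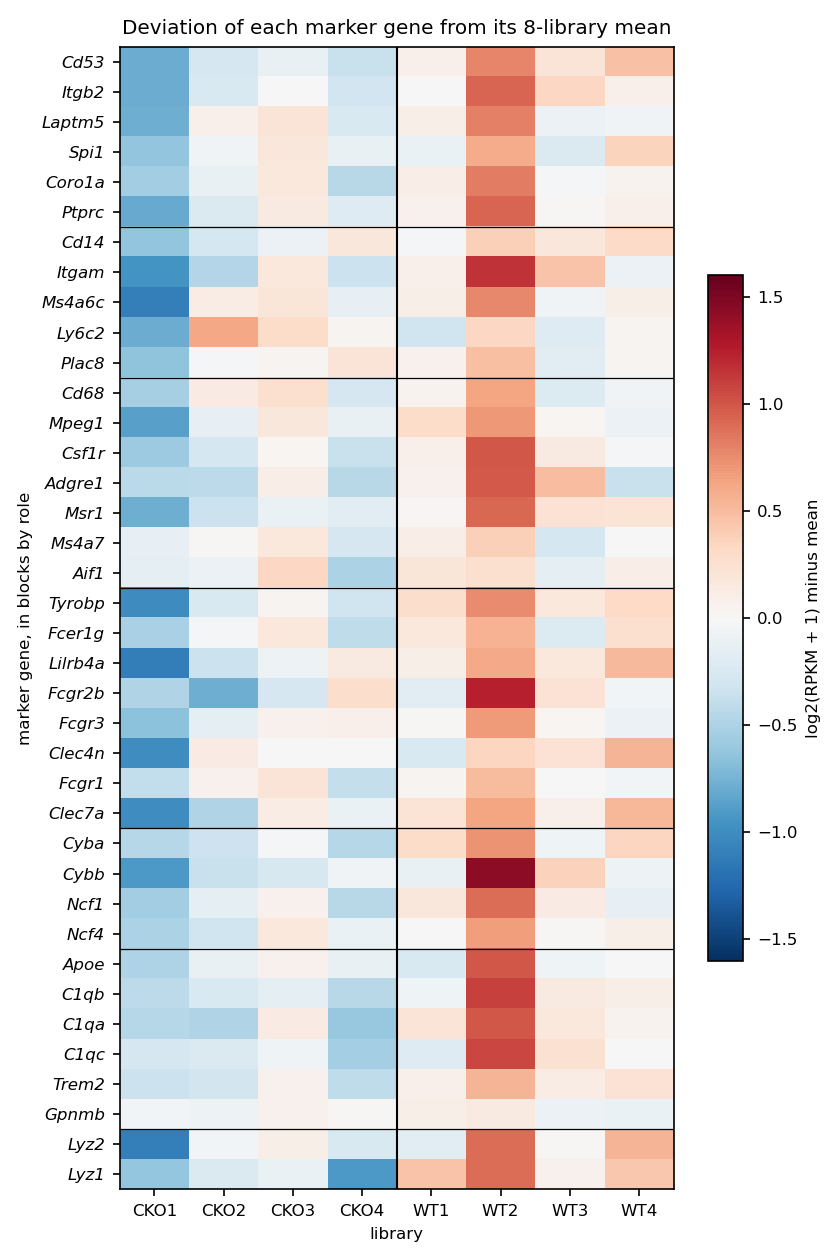
Deviation of each marker gene in each library from its mean over the 8 libraries, on the log2(RPKM + 1) scale, with genes in blocks by role and the black vertical line between CKO and WT. The WT2 column is red throughout, with a median deviation of 0.76, and CKO1 is blue throughout, with a median of -0.62. CKO3, WT1, WT3 and WT4 lie close together, with medians of 0.05 to 0.07.

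Among the genes grouped here as those of leukocytes in general, Spi1 included, 1 of 6 fell and all 6 had a fitted change below 0. Cd53 (chromosome 3, 106759921 to 106790149, minus strand), a tetraspanin of the leukocyte membrane, was at 4.64, 7.13, 8.02 and 6.61 RPKM in CKO1 to CKO4. In WT1 to WT4 it was at 9.37, 15.7, 10.2 and 12.6 RPKM. The groups did not overlap, and the lowest WT library stood above the highest CKO library. Cd53 was 1.81-fold higher in WT (6.60 ± 1.43 against 12.0 ± 2.84 RPKM, SD, n = 4 each; log2 change -0.77, SE 0.18, adjusted p = 0.0262). The call was lost without CKO2 (0.0569), CKO4 (0.0664), WT2 (0.0642) or WT4 (0.0667).

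Ptprc, which encodes the phosphatase CD45 found on every leukocyte, was at 0.548, 1.30, 1.98 and 1.35 RPKM in CKO1 to CKO4. It was at 1.82, 4.14, 1.75 and 1.85 RPKM in WT1 to WT4. The groups overlapped through CKO3, and WT1, WT3 and WT4 were nearly level (1.81 ± 0.0543 RPKM, n = 3). Its log2 change was -0.55 (adjusted p = 0.155), and -0.15 with neither WT2 nor CKO1. Itgb2, the beta-2 integrin chain that pairs with the product of Itgam, was at 4.49 to 8.48 RPKM in CKO and 8.59 to 17.1 RPKM in WT, with no overlap but an adjusted p of 0.0749. Coro1a, an actin regulator, and Laptm5, a lysosomal membrane protein, had adjusted p of 0.154 and 0.335.

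Spi1 itself was at 3.54, 5.78, 7.02 and 5.49 RPKM in CKO1 to CKO4 and at 5.57, 9.68, 5.02 and 8.05 RPKM in WT1 to WT4. CKO2, CKO3 and CKO4 stood above WT3, so the groups overlapped. The log2 change was -0.31 (SE 0.21, adjusted p = 0.352), and -0.01 with neither WT2 nor CKO1.

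PU.1 binds purine-rich DNA with the core GAGGAA. Promoters were in the RefSeq table (build GRCm38.p6) for 27 of the 38 genes, some with several start sites. In the 250 bases before any of their starts, 15 of the 27 (55.6%) held GAGGAA on either strand, against 25.9% of all 27025 symbols in that table and 25.2% of the tested genes in it. Within 60 bases of the start, a distance chosen after the matches were seen, 10 of the 27 (37.0%) held it, against 7.02% of all symbols and 6.45% of the tested genes. Such a match is a description of the letters, not a bound site. The 100 bases up to the start site are printed for 5 genes with a match within 60 bases, picked from 3 of the roles. Each GAGGAA, or its reverse complement TTCCTC on the printed strand, is in capitals. The windows are chr3:106790150-106790249 (minus strand) for Cd53, chr4:130913216-130913315 (plus) for Laptm5, chr7:128062540-128062639 (plus) for Itgam, chr4:136886201-136886300 (minus) for C1qb and chr17:48346301-48346400 (plus) for Trem2.
Cd53: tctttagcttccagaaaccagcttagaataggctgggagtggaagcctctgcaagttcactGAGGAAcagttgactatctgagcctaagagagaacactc
Laptm5: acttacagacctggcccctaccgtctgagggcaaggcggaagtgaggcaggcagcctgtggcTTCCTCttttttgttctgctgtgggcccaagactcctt
Itgam: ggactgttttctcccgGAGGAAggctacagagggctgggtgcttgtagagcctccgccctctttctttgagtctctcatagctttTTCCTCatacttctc
C1qb: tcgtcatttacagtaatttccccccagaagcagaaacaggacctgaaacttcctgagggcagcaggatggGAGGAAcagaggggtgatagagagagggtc
Trem2: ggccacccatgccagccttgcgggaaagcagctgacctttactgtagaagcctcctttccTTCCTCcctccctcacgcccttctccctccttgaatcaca
The motif began 39, 38, 15, 30 and 40 bases before the start in Cd53, Laptm5, Itgam, C1qb and Trem2, and a second one in Itgam began 84 bases before it. Of these 5 genes Cd53 alone passed the expression test (Trem2 was not tested), while the called genes Cyba and Lyz1 held no match in their windows. The remaining called gene, Tyrobp, was not among the 27 genes with a promoter.

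Of 5 monocyte genes tested, 4 had a fitted change below 0, 0 passed with limma or with limma-voom, and 2 were lower at an unadjusted p under 0.05. Ly6c2, which marks inflammatory monocytes newly arrived from blood, was at 3.23, 10.2, 7.98 and 6.54 RPKM in CKO1 to CKO4 and at 4.87, 8.19, 5.34 and 6.59 RPKM in WT1 to WT4. CKO2 was its highest library and CKO1 its lowest. It was the 1 tested marker gene with a fitted change above 0 (log2 change 0.08, SE 0.26, adjusted p = 0.877). The change was 0.48 with neither WT2 nor CKO1 (adjusted p = 0.116), and turned to -0.11 without CKO2, -0.01 without CKO3 and -0.02 without WT1. Plac8, also high in such monocytes, was at 1.62 to 3.72 RPKM in CKO and 2.65 to 4.73 RPKM in WT (log2 change -0.22, adjusted p = 0.479).

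Itgam, the CD11b integrin chain of monocytes, macrophages and neutrophils, was at 3.08, 4.69, 7.85 and 5.25 RPKM in CKO1 to CKO4. It was at 7.39, 16.6, 9.87 and 6.40 RPKM in WT1 to WT4. CKO3 stood above WT1 and WT4, and the adjusted p was 0.0990 at a log2 change of -0.80. Cd14, the co-receptor for bacterial lipopolysaccharide, was one of the more abundant marker genes (24.2 ± 5.84 against 32.2 ± 4.11 RPKM, n = 4 each, adjusted p = 0.122). Ms4a6c was at 2.58 to 7.73 RPKM in CKO and 6.33 to 12.0 RPKM in WT (adjusted p = 0.312).

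Of the 7 macrophage genes 5 were tested and 0 passed with limma or limma-voom, with 3 lower at an unadjusted p under 0.05. Adgre1, which encodes the macrophage surface protein F4/80, was at 1.72, 1.75, 2.96 and 1.69 RPKM in CKO1 to CKO4 and at 2.83, 6.27, 4.15 and 1.85 RPKM in WT1 to WT4. WT4 lay close to 3 of the CKO libraries and below CKO3 (log2 change -0.59, SE 0.25, adjusted p = 0.158). Csf1r was at 2.88, 3.79, 4.97 and 3.57 RPKM in CKO1 to CKO4 and at 5.15, 10.6, 5.44 and 4.76 RPKM in WT1 to WT4. The groups overlapped between CKO3 and WT4 alone, and the log2 change was -0.60 (SE 0.21, adjusted p = 0.0981), or -0.37 without WT2.

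Cd68, a lysosomal glycoprotein of phagocytes, differed least in this block. It was at 10.7, 17.6, 19.2 and 13 RPKM in CKO1 to CKO4 and at 16.6, 25.2, 13.5 and 15.3 RPKM in WT1 to WT4. Without WT2 the group means were equal to the digits shown, 15.1 ± 3.92 RPKM in CKO (n = 4) and 15.1 ± 1.55 RPKM in WT (n = 3), with a log2 change of -0.03. Msr1, a scavenger receptor, was at 0.984 to 2.17 RPKM in CKO and 2.44 to 5.44 RPKM in WT, with no overlap, a 2.02-fold difference of means and an adjusted p of 0.0568. Mpeg1, a pore-forming protein of phagocytes, had an adjusted p of 0.208.

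Aif1 and Ms4a7 stayed under the level needed for the test. Aif1, an actin-binding protein of macrophages, was at 0.0927 to 0.943 RPKM in CKO and 0.406 to 0.851 RPKM in WT, which is 3 to 33 reads. Ms4a7 was at 0.424 to 0.922 RPKM in CKO and 0.411 to 1.23 RPKM in WT. Both overlapped between the groups.

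Fc receptors bind antibody-coated targets, C-type lectins such as the product of Clec7a bind fungal sugars, and many of them signal through the adaptors encoded by Tyrobp and Fcer1g. All 8 genes of this block had a fitted change below 0, and 1 fell. Tyrobp (chromosome 7, 30413760 to 30417585, plus strand) encodes DAP12. It was at 13.9, 24.4, 30 and 23.2 RPKM in CKO1 to CKO4 and at 35.4, 49.8, 32.8 and 36.6 RPKM in WT1 to WT4. The groups did not overlap, and CKO1 was the lowest and WT2 the highest library. The log2 change was -0.76 (SE 0.21, adjusted p = 0.0470), and -0.43 with neither WT2 nor CKO1. It passed without CKO1 (0.0463) or CKO3 (0.0279), and leaving out any other single library ended the call, with adjusted p up to 0.109 without WT2.

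Fcer1g, the shared gamma chain of Fc receptors, was near the level of Tyrobp but differed less, at 19.3, 27.9, 31.8 and 21.1 RPKM in CKO1 to CKO4 and at 31.8, 42.0, 24.1 and 33.8 RPKM in WT1 to WT4 (log2 change -0.38, adjusted p = 0.202). The ratio of Fcer1g to Tyrobp within a library was 0.909 to 1.38 in CKO and 0.734 to 0.924 in WT, with a small overlap. The activating receptors Fcgr1 and Fcgr3 had adjusted p of 0.360 and 0.318. Fcgr2b, the inhibitory Fc receptor, stood out in WT2 at 15.2 RPKM. It was at 5.10 to 7.04 RPKM in WT1, WT3 and WT4 and at 2.99 to 7.33 RPKM in CKO (adjusted p = 0.217).

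Clec7a, which encodes dectin-1, was at 0.517, 1.16, 2.26 and 1.8 RPKM in CKO1 to CKO4 and at 2.51, 3.66, 2.18 and 3.37 RPKM in WT1 to WT4. CKO3 was above WT3 and the adjusted p was 0.0639, or 0.0312 without CKO3. Lilrb4a, an inhibitory receptor, was at 5.18 to 13.8 RPKM in CKO and 13.3 to 19.3 RPKM in WT (adjusted p = 0.0903). Clec4n, which encodes dectin-2, was highest in WT4, at 5.64 RPKM, and lowest in CKO1, at 1.29 RPKM (adjusted p = 0.272).

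The phagocyte NADPH oxidase makes superoxide from a membrane pair, encoded by Cybb and Cyba, and cytosolic subunits that include those of Ncf1 and Ncf4. All 4 genes were lower in CKO at an unadjusted p under 0.05, against 22.7% of all genes, and Cyba fell. The unadjusted count was 2 of 4 without WT2, 1 without CKO1 and 1 with neither. Cyba (chromosome 8, 122424776 to 122432930, minus strand), the p22phox chain, was at 12.9, 14.3, 17.8 and 13 RPKM in CKO1 to CKO4 and at 22.6, 30.4, 17.2 and 23.3 RPKM in WT1 to WT4. CKO3 and WT3 were the only pair that crossed. The means were 14.5 ± 2.26 and 23.4 ± 5.43 RPKM (n = 4 each; log2 change -0.64, SE 0.16, adjusted p = 0.0362). The call held without CKO3 (0.0259) or WT3 (0.0257), the 2 libraries that crossed, and was lost on leaving out any other single library (0.0548 to 0.0953), with limma-voom (0.0595), with median centring (0.0539) and with no filter on low values (0.0820).

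Cybb, the catalytic chain gp91phox, was at 1.30, 2.40, 2.66 and 3.19 RPKM in CKO1 to CKO4 and at 3.01, 10.8, 4.64 and 3.14 RPKM in WT1 to WT4. WT2 alone was more than 10 RPKM, and the SE of its log2 change was the largest of the 34 genes (-0.80, SE 0.32, adjusted p = 0.146). Without WT2 the change was -0.46. Ncf1 (1.24 to 2.44 against 2.01 to 5.14 RPKM) and Ncf4 (0.993 to 2.18 against 1.82 to 3.52 RPKM) overlapped between the groups, with adjusted p of 0.119 and 0.182.

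C1q starts the classical complement pathway and is made largely by tissue macrophages, and its 3 chains come from neighbouring genes on chromosome 4. C1qa was at 6.84, 6.67, 10.7 and 6.03 RPKM in CKO1 to CKO4 and at 11.4, 20.4, 11.1 and 10.2 RPKM in WT1 to WT4. CKO3 was above WT4 alone (log2 change -0.71, SE 0.21, adjusted p = 0.0655, and 0.0310 without CKO3). C1qb did not overlap, at 11.5 to 14.2 RPKM in CKO and 15.2 to 35.2 RPKM in WT (adjusted p = 0.0884). C1qc was at 6.43 to 9.38 against 8.45 to 21.8 RPKM (adjusted p = 0.153). CKO1 was not low for this complex, being 0.876 of the mean of the other CKO libraries for C1qa, 0.897 for C1qb and 1.00 for C1qc, where it was 0.355 for Ptprc and 0.487 for Lyz2. With neither WT2 nor CKO1 the log2 changes of the chains were -0.47, -0.34 and -0.30.

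Apoe, the lipid carrier of macrophages and other cells, was at 22.9, 29.7, 34.2 and 29.8 RPKM in CKO1 to CKO4 and at 27.2, 65.6, 30.9 and 32.2 RPKM in WT1 to WT4. Aside from WT2 the groups lay on top of each other, with a log2 change of -0.33 (adjusted p = 0.390) that became -0.06 without that library. Trem2, a lipid-sensing receptor that signals through DAP12, was too low for the test, at 0.357, 0.406, 0.818 and 0.304 RPKM in CKO1 to CKO4 and at 0.822, 1.52, 0.866 and 1.03 RPKM in WT1 to WT4. The groups did not overlap, with CKO3 just under WT1, at 11 to 56 reads. With a filter at 0.5 RPKM the log2 change of Trem2 was -0.49 (adjusted p = 0.0499), and with no filter the adjusted p was 0.0929. It met the 0.5 RPKM filter through WT, since CKO1, CKO2 and CKO4 lay under it, so this is not counted as a call. Gpnmb, a glycoprotein of lipid-laden macrophages, was at 0.0515 to 0.253 RPKM in all libraries, or 6 to 31 reads.

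The lysozymes cut bacterial cell walls. Lyz2, the lysozyme of myeloid cells, was the most abundant marker gene, at 109, 226, 250 and 196 RPKM in CKO1 to CKO4 and at 206, 434, 236 and 341 RPKM in WT1 to WT4. CKO2 and CKO3 lay above WT1, and CKO3 above WT3 too. The log2 change was -0.64 (SE 0.29, adjusted p = 0.185), or -0.19 with neither WT2 nor CKO1. A Cre knock-in at Lyz2 is a common tool for myeloid deletion, and the labels do not say whether it was used here. The ratio of Lyz2 to Csf1r within a library overlapped between the groups (50.7 ± 9.37 in CKO, 49.0 ± 15.2 in WT, n = 4 each). The ratio of Lyz2 to Cd68 overlapped too, but its mean was lower in CKO (12.8 ± 2.02, against 17.4 ± 4.03 in WT, n = 4 each). The picture thus depends on the gene divided by, and no test was run on these ratios.

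Lyz1 (chromosome 10, 117287797 to 117292868, minus strand), a lysozyme of Paneth cells and some macrophages, was the lowest in p of all 38. It was at 1.53, 2.30, 2.59 and 1.05 RPKM in CKO1 to CKO4 and at 4.29, 6.20, 3.06 and 4.20 RPKM in WT1 to WT4. The groups did not overlap, and Lyz1 was 2.38-fold higher in WT (1.87 ± 0.707 against 4.44 ± 1.30 RPKM; log2 change -0.93, SE 0.20, adjusted p = 0.0227). It passed without WT2 (0.0469) and missed the threshold without CKO4 (0.0592), WT1 (0.0597) or WT4 (0.0566). Lyz1 and Lyz2 are neighbours, and 16.1% of the 50-base stretches of Lyz1 transcripts also occur in Lyz2 transcripts, so reads may have been shared. Lyz1 was at 0.00535 to 0.0140 of Lyz2 in CKO and at 0.0123 to 0.0208 in WT, and these ratios overlapped. Larger shares were found with other genes for Itgam (66.3%), Ms4a6c (51.4%) and Lilrb4a (47.2%), and for Ly6c2 the share was 14.5%, so their levels are uncertain too.

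**Figure D3:**
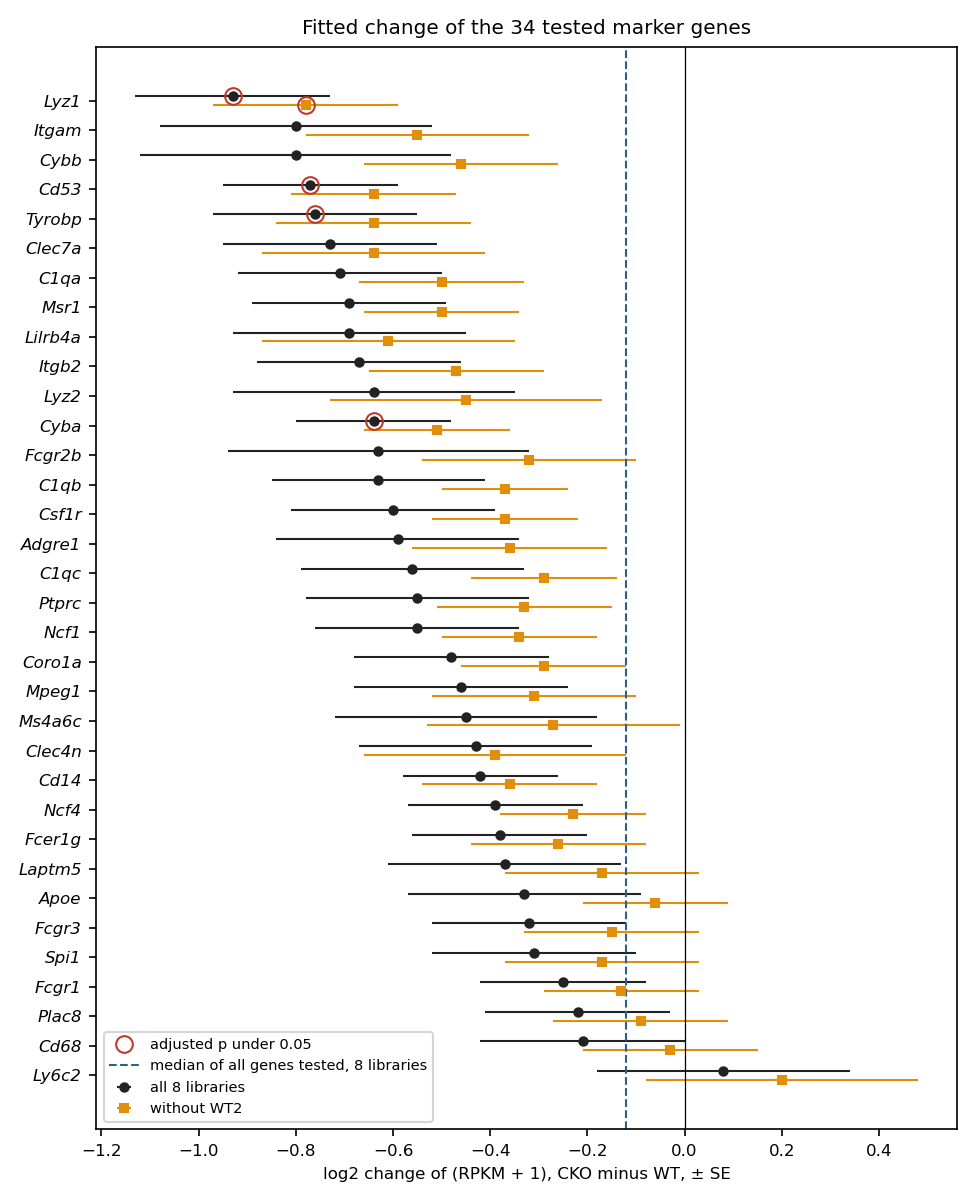
Fitted change of the 34 tested marker genes on the log2(RPKM + 1) scale, CKO minus WT, with bars of 1 SE, from all 8 libraries (black) and without WT2 (orange). Red rings mark an adjusted p under 0.05, and the dashed line is the median of all genes tested, -0.12. Most orange points lie to the right of the black ones, and Ly6c2 is the gene to the right of 0.

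Taken relative to the median tested marker gene of the same library, on the log2(RPKM + 1) scale, Lyz1 was 0.54 lower in CKO than in WT, Cybb and Itgam 0.41 lower, and Cd53 and Tyrobp 0.37 lower. On that scale Ly6c2 was 0.47 higher, Cd68 0.19 higher and Plac8 0.18 higher. The relative values of all these genes except Cd53 and Tyrobp overlapped between the groups. No test was run on them, and the scale shrinks changes of low genes. The ratio of Ly6c2 to Adgre1 within a library was 1.88, 5.87, 2.70 and 3.87 in CKO1 to CKO4 and 1.72, 1.31, 1.29 and 3.56 in WT1 to WT4. It overlapped through CKO1, CKO3 and WT4.

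Of 36 further monocyte and macrophage genes, 35 were in the table and 26 were tested. All 26 had a fitted change below 0, against 70.4% of all genes tested. By the threshold 2 fell and 0 rose, where 5.74% of all genes fell. At an unadjusted p under 0.05, 12 were lower and 0 higher, against 22.7% of all genes lower. For the limma counts of the lists below the same shares over all genes hold. Ccr2, the chemokine receptor that brings monocytes out of the marrow, was at 2.12, 4.03, 5.67 and 3.70 RPKM in CKO1 to CKO4 and at 7.03, 10.7, 7.19 and 6.18 RPKM in WT1 to WT4 (log2 change -0.87, adjusted p = 0.0359, and 0.0812 without WT2). The lectin receptor Clec4a2 was at 1.31 to 2.22 RPKM in CKO and 2.72 to 3.18 RPKM in WT (log2 change -0.55, adjusted p = 0.0263, and 0.0670 without WT2). Both were without overlap. The pattern across libraries was that of the 38, with a summed level lowest in CKO1 (77.4 RPKM) and highest in WT2 (305 RPKM).

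Below the adaptors, 10 of 15 kinase and signalling genes were tested. With limma 0 passed, 6 were lower at an unadjusted p under 0.05, and limma-voom called 0. Fgr, a Src-family kinase of myeloid cells, was at 1.49 to 3.09 RPKM in CKO and 2.92 to 5.39 RPKM in WT (adjusted p = 0.126). Among 5 tested partners of the NADPH oxidase 0 passed, with 3 lower at an unadjusted p under 0.05 and 0 by limma-voom. The small GTPases Rap1a and Rac1 led these (adjusted p = 0.113 and 0.154). Of 3 tested colony stimulating factor genes 0 passed, with 0 at an unadjusted p under 0.05 and 0 by limma-voom.

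Of 9 tested transcription factors of myeloid development, 1 fell and 0 rose. Maf, a factor of resident macrophages, was at 0.819, 1.37, 1.28 and 0.600 RPKM in CKO1 to CKO4 and at 2.21, 3.61, 1.85 and 1.87 RPKM in WT1 to WT4 (log2 change -0.74, adjusted p = 0.0294, and 0.0582 without WT2). It met the filter of 1 RPKM through WT, with CKO1 and CKO4 under that level. Cebpb, a factor of inflammatory activation that many cell types express, was at 22.5, 52.6, 46.7 and 58.4 RPKM in CKO1 to CKO4 and at 22.0, 14.8, 24.9 and 25.2 RPKM in WT1 to WT4. In CKO it was low in CKO1 alone, and WT2 was its lowest library (log2 change 0.96, adjusted p = 0.0574). Without CKO1 it passed as higher in CKO (log2 change 1.26, adjusted p = 0.00138), and likewise with neither WT2 nor CKO1 (1.09, adjusted p = 0.000508). Without WT2 alone the adjusted p was 0.138.

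Values of markers of other cell types are given here, and their part in the results above was not tested. Over 16 neutrophil genes the summed level was 92.1 to 155 RPKM in CKO and 146 to 204 RPKM in WT. Of 9 tested, 0 passed with limma or limma-voom and 2, S100a8 and S100a9, were lower at an unadjusted p under 0.05. The dendritic cell list summed to 1.89 to 3.90 RPKM in CKO and 4.63 to 8.0 RPKM in WT. It had 1 of 2 tested genes lower, the chemokine gene Ccl22 (log2 change -1.01, adjusted p = 0.0264), which did not pass without WT2 (0.0675) or with limma-voom. Ccl22 met the filter through WT, with CKO1 and CKO4 under 1 RPKM (0.678 and 0.192). In this list Xcr1 and Clec9a were under 0.1 RPKM in all 8 libraries. Some others were higher, such as Zbtb46 at 0.914 to 1.53 RPKM and Itgax at 0.135 to 0.755 RPKM. T and NK cell genes summed to 1.58 to 2.94 RPKM in CKO and 2.17 to 7.72 RPKM in WT. Cd3e was at 0 in CKO1, CKO2, CKO4, WT1 and WT4, while Lck was at 0.289 to 0.997 RPKM over the 8 libraries. Of 4 tested red blood cell genes 2 fell, Hba-a2 and Hbb-bt (adjusted p = 0.0283 and 0.0371), at summed levels of 38.9 to 88.8 RPKM in CKO and 60.6 to 92.4 RPKM in WT. Neither passed without WT2. Of the other lists, mast cells had 0 of 1 tested genes past the threshold (1 lower at an unadjusted p under 0.05, 0 by limma-voom), fat cells 0 of 3 (0 and 0) and fibroblasts and stellate cells 0 of 9 (1 lower and 0). Among endothelial genes 1 of 8 fell (Kdr, not without WT2, adjusted p = 0.0671), also the 1 lower at an unadjusted p under 0.05. All 7 tested duct genes had a fitted change below 0 (median -0.50). Of these, 1 fell (Sox9) and 5 were lower at an unadjusted p under 0.05. Among 25 acinar genes 3 fell and 2 rose, and among 8 islet genes 1 rose (Gcg), where 121 of all 8513 genes tested rose. At an unadjusted p under 0.05, 3 acinar genes were lower and 3 higher, and 0 islet genes were lower and 5 higher. No B or plasma cell gene reached the level for the test, and the 1 tested T and NK cell gene, Thy1, did not pass.

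**Figure D4:**
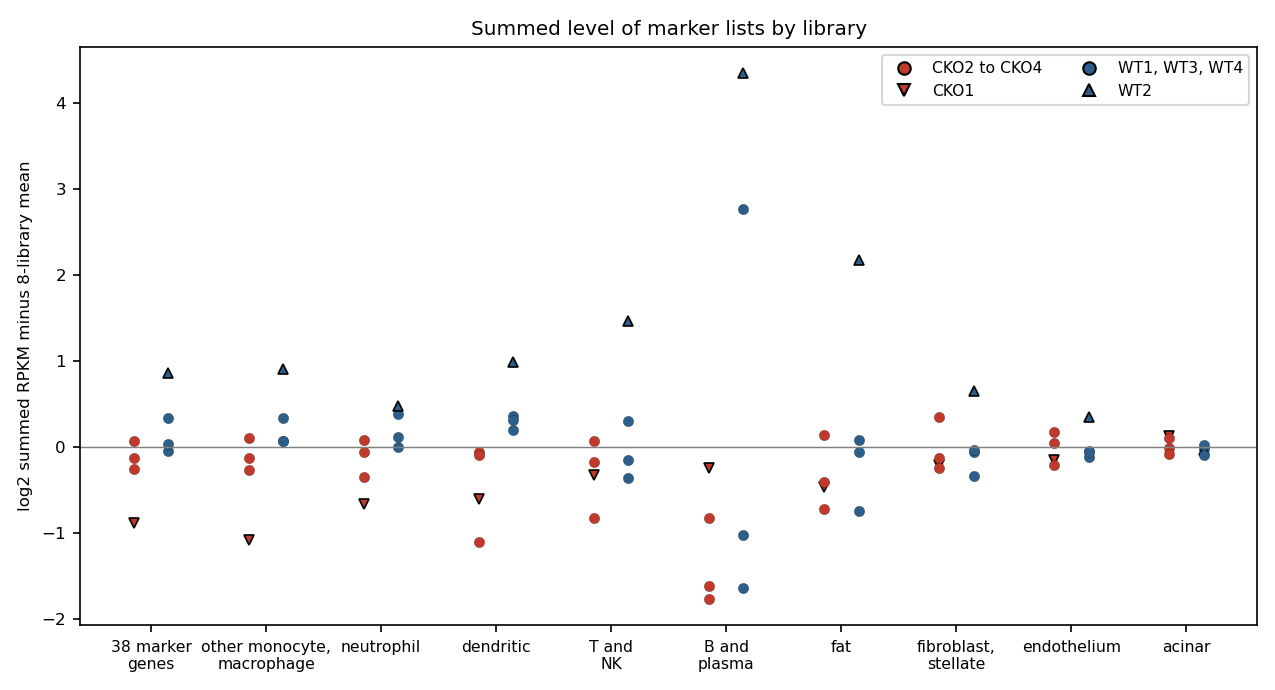
Summed RPKM of the 38 marker genes and of 9 other marker lists in each library, as log2 minus the mean of the 8 libraries. Red symbols are CKO and blue symbols WT, with triangles for CKO1 (down) and WT2 (up). WT2 is the highest library in every list shown except the acinar one, and stands farthest from the others for B and plasma cells (14.3 RPKM) and fat cells (183 RPKM).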

How the data were processed

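RNA of 8 whole pancreas samples was sequenced, 4 per group. The deposited table gave 1 named column per sample. Its header names no unit; the authors' values were read as RPKM from the numbers themselves. For 16057 of 16068 genes listed above 0 in 2 libraries or more (99.93%), a gene length could be found that turns every value into whole reads within 0.05 reads, which also gives the library totals. Gene positions are GENCODE M21. The build was mm10, per the submitters' processing notes; for the aligner, counter and annotation, nothing is given in the sources used here. The table also held 1 unnamed column with values, which was not used.

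limma 3.58.1 in R 4.3.3 compared the groups on log2(RPKM + 1) over genes that reached 1 RPKM in 4 or more libraries, with no covariate, a variance trend on level, robust variances and Benjamini-Hochberg adjustment over all tested genes. The log2 changes are on that scale and understate changes of low genes. A level of 3 reads on a gene of 1 kb is 0.0873 to 0.0985 RPKM, counting error only. The 38 genes, their roles and the 17 other lists were chosen with earlier results of these data known. All 38 are named, with up to 2 genes per other list by smallest unadjusted p. Xcr1, Clec9a, Itgax, Cd3e and Lck were named after their values were seen. One gene that this rule names is not reported here. The alternatives were another pseudocount, filter, scaling or variance model, limma-voom on recovered reads, a replicate block and leaving out each library. Leaving out WT2 and CKO1 together and the search for shared 50-base stretches were chosen after the data were seen. The fit and the recovery of reads were tested on simulated data.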

Additional observations from a re-analysis of the deposited data

Results flagged for a closer look

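Within a group of 4 samples, a gene was picked out where its highest or lowest library stood far from the other 3 compared with the whole range. This was so for 13 of the 76 combinations of marker gene and group. The rule's rate of about 1 in 20 is for independent values. Marker genes vary together across these libraries, so the 13 were not tested against it. WT2 was the library in 11 of them, always as the highest. Its level was 4.14 RPKM for Ptprc (1.75 to 1.85 RPKM in the other WT libraries), 16.3 RPKM for Laptm5 (8.30 to 9.55), 10.4 RPKM for Coro1a (5.35 to 5.91), 12.0 RPKM for Ms4a6c (6.33 to 7.16) and 10.6 RPKM for Csf1r (4.76 to 5.44). It was 5.93 RPKM for Fcgr1 (3.74 to 4.05), 8.31 RPKM for Fcgr3 (4.46 to 4.96) and 3.52 RPKM for Ncf4 (1.82 to 2.04). It was 20.4 RPKM for C1qa (10.2 to 11.4), 35.2 RPKM for C1qb (15.2 to 17.8) and 65.6 RPKM for Apoe (27.2 to 32.2). In CKO, Adgre1 was high in CKO3 at 2.96 RPKM (1.69 to 1.75 elsewhere), and Clec4n was low in CKO1 at 1.29 RPKM (3.55 to 4.00 elsewhere).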

How the results depend on the processing

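The count of marker genes past the threshold, 4 by the main test, ranged from 0 to 6 on leaving out single libraries. It was 0 with no filter on low values (16 at an unadjusted p under 0.05, and 464 of all genes passed), 2 with limma-voom and 0 with neither WT2 nor CKO1, a choice made after the data were seen. The median log2 change of the tested marker genes kept its sign in every setting run, from -0.65 to -0.35 on leaving out single libraries. All genes past the threshold were 610, 185 to 686 on leaving out single libraries and 370 with neither WT2 nor CKO1. Genes of the other lists past the threshold were 14, 6 to 20 on leaving out single libraries, and 6 with no filter. Of the 610, 121 were higher and 489 lower; with median centring 305 were higher and 267 lower, and with totals without acinar enzymes 215 and 485. Median centring moved the median of all genes from -0.12 to -0.02 and that of the marker genes to -0.45.

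Anxa1 (-0.73) missed the threshold with no filter (-0.73), limma-voom (-0.83), median centring (-0.63), totals without acinar enzymes (-0.68) and neither WT2 nor CKO1 (-0.50), with -0.86 to -0.54 on leaving out single libraries. Ly6c2 ranged from -0.11 to 0.36 on leaving out single libraries, and its sign turned without CKO2 (-0.11), CKO3 (-0.01) or WT1 (-0.02). With neither WT2 nor CKO1 it turned for Laptm5 (0.03), Plac8 (0.09), Ms4a6c (0.02), Cd68 (0.11), Fcgr3 (0.02) and Apoe (0.05). The cause was not tested.

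The labels do not say whether the replicate numbers pair the samples. Deviations of same-numbered libraries correlated at -0.12, -0.32, 0.14 and 0.03, and not every library correlated best with its own number. These few correlations cannot settle the pairing. With the replicate number as a block in limma 6 marker genes passed, Cd53, Itgb2, Msr1, Tyrobp, Lilrb4a and Lyz1. Cyba missed the threshold at an adjusted p of 0.0592. Of all genes 548 passed, and of the other lists 14 genes. In this balanced design the block cannot move a fitted change, so the median (-0.55) and Anxa1 (-0.73) were fixed in advance.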
